A study of Mus musculus with 6 samples.

Results

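The Hedgehog core genes were followed here in the mandibular arch, the first pharyngeal arch, from which the lower jaw and part of the tongue form. The members are 9 genes chosen by name: the ligand Shh, the receptor Ptch1, the signal transducer Smo, the coreceptors Gas1 and Boc, the antagonist Hhip, and the transcription factors Gli1, Gli2 and Gli3. All 24 probe sets annotated to 1 of these symbols were used, of 45101 on the array, and all 9 genes and 24 probe sets passed a filter on low values, which asked for log2 expression above 4 on 3 or more arrays. The samples were 3 arrays labelled Tbx1-/- and 3 labelled Tbx1+/+, both of strain C57BL/6 at E10.5 (days of embryonic development), hybridized to Affymetrix whole-genome mouse expression arrays. Tbx1 is a T-box transcription factor of the pharyngeal region. How its null allele was built, and in what part of the gene, was not stated in the labels. Arches of 3 embryos per genotype were pooled. The labels do not say whether the arrays of a genotype carried separate pools, so p-values measure the spread between these samples, which may be technical.

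Hedgehog ligands are secreted proteins that bind Ptch1, which otherwise holds Smo inactive. Smo acts in the primary cilium and turns the Gli proteins from repressors into activators, and the coreceptors Gas1 and Boc help the ligand to bind. Ptch1, Hhip and Gli1 are themselves switched on by the pathway, so their transcripts are widely used as its readouts. In the arches of the mouse, Shh is made by the epithelium, and the neural crest mesenchyme beneath it responds. In mouse embryos Shh signalling is also known to maintain Tbx1 expression in the pharyngeal arches, which places Shh upstream of the gene removed here.

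Markers of arch mesenchyme were read first, and values above 4 do not by themselves identify a tissue, since epithelial markers reached them too. All 14 markers of arch mesenchyme were above 4 on every array, with a summed signal (log2 of the summed linear values) between 15.07 and 15.12 on the Tbx1-/- arrays and between 15.06 and 15.14 on the Tbx1+/+ arrays. Tbx1 itself read 7.59, 7.50 and 7.30 on the Tbx1-/- arrays, against 6.93, 7.31 and 6.92 on the Tbx1+/+ arrays, and its 1 probe set does not check the labels, because the disrupted part of the gene is unknown here. 1 array stood apart. Tbx1-/- replicate 3 held 249 genes more than 1 log2 unit above the mean of the other arrays, against 6 to 32 on the other 5. The 9 measured genes of a placental list of 12 summed to 14.91 on that array, to 8.57 and 8.64 on the other Tbx1-/- arrays and to between 8.33 and 8.59 on the Tbx1+/+ arrays. On that array all 9 were above 4, against 5 or 6 on each of the others. The macrophage list summed to between 8.62 and 11.95 on the Tbx1-/- arrays, highest on that same array, and to between 8.91 and 9.30 on the Tbx1+/+ arrays. Most of that height was Csf1r, at 11.77 there and 6.30 to 7.94 on the other arrays. Ptprc, Tyrobp and Fcer1g were also highest there, at 6.12, 7.48 and 7.53, and Aif1 was lowest, at 4.69. Results are therefore also given without Tbx1-/- replicate 3. Of the remaining marker lists, 8 tested neural genes had 2 lower and 6 higher means on the Tbx1-/- arrays (median 0.07), 7 endothelial genes 2 and 5 (0.18), 5 erythroid genes 5 and 0 (-0.11), and 5 macrophage genes 2 and 3 (0.06), with 0 past the adjusted threshold in limma and 1 neural gene higher without adjustment. The 14 genes of arch mesenchyme had 7 lower and 7 higher means (0.01; 0 past the threshold, 1 higher without adjustment), and the 6 tested placental genes had 6 higher (2.21; 0 past the threshold, 0 without adjustment).

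**Figure D1:**
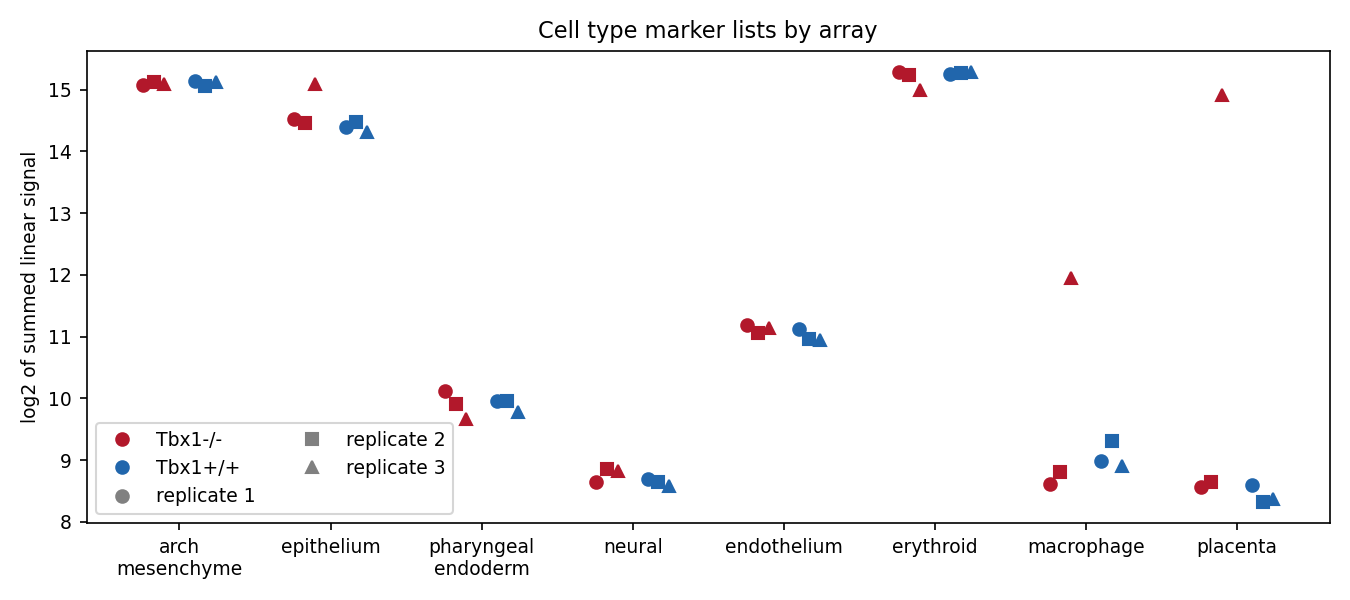
Cell type marker lists by array. Each point is 1 array, the vertical axis is the log2 of the summed linear signal over the list, red is Tbx1-/- and blue Tbx1+/+. The placental list reads 14.91 on Tbx1-/- replicate 3 and 8.64 or below on the 5 other arrays.

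No member passed the test, and the 2 that came nearest were the ligand Shh and the antagonist Hhip, both lower on the Tbx1-/- arrays. The test was limma with Benjamini-Hochberg adjustment over 16074 genes, each gene read by its brightest probe set. In it 6 genes (0.0373%) had an adjusted p under 0.05, 2 of them higher and 4 lower, and 0 of the 9 members did. With the replicate number as a block there were 4 higher and 6 lower genes, again with 0 members. Without adjustment, limma gave p under 0.05 for 2 of 9 members, both lower, where 1.2% of all genes tested were lower and 1.47% higher at that level. In 7 of the 9 members the Tbx1-/- mean was the lower one, as in 52.7% of all genes tested (47.3% were higher), and the median difference was -0.05 on the log2 scale, against -0.01 over all genes. Groups did not overlap for Hhip and Gli1, both lower, where 3.25% of all genes were lower and 3.17% higher without overlap. Without Tbx1-/- replicate 1 Shh and Ptch1 were also lower without overlap, which made 4 of 9 members against 7.84% of all genes. For both genes it was the only Tbx1-/- array not below every Tbx1+/+ array, so leaving it out removed their overlap by construction. The gap then left for Ptch1 was small, 12.684 against 12.687. With any other array left out instead, 2 or 3 members were lower without overlap, against 5.9% to 10% of all genes. Hhip and Gli1 had to be among them each time, since leaving out an array cannot create an overlap. Read by single probe sets, 16 of 24 were lower and 8 higher, where 54% and 46% of the 29948 probe sets tested were. In limma 0 of 24 passed the adjusted threshold (0.00668% of all did), and 4 were lower without adjustment at p under 0.05 (1.11% of all lower, 1.35% higher). Groups did not overlap on 5 sets that were lower (3.26% of all), 4 of Hhip and 1 of Gli1. They nearly touched on 1 set of Ptch1 that was higher without overlap (2.9% of all).

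**Figure D2:**
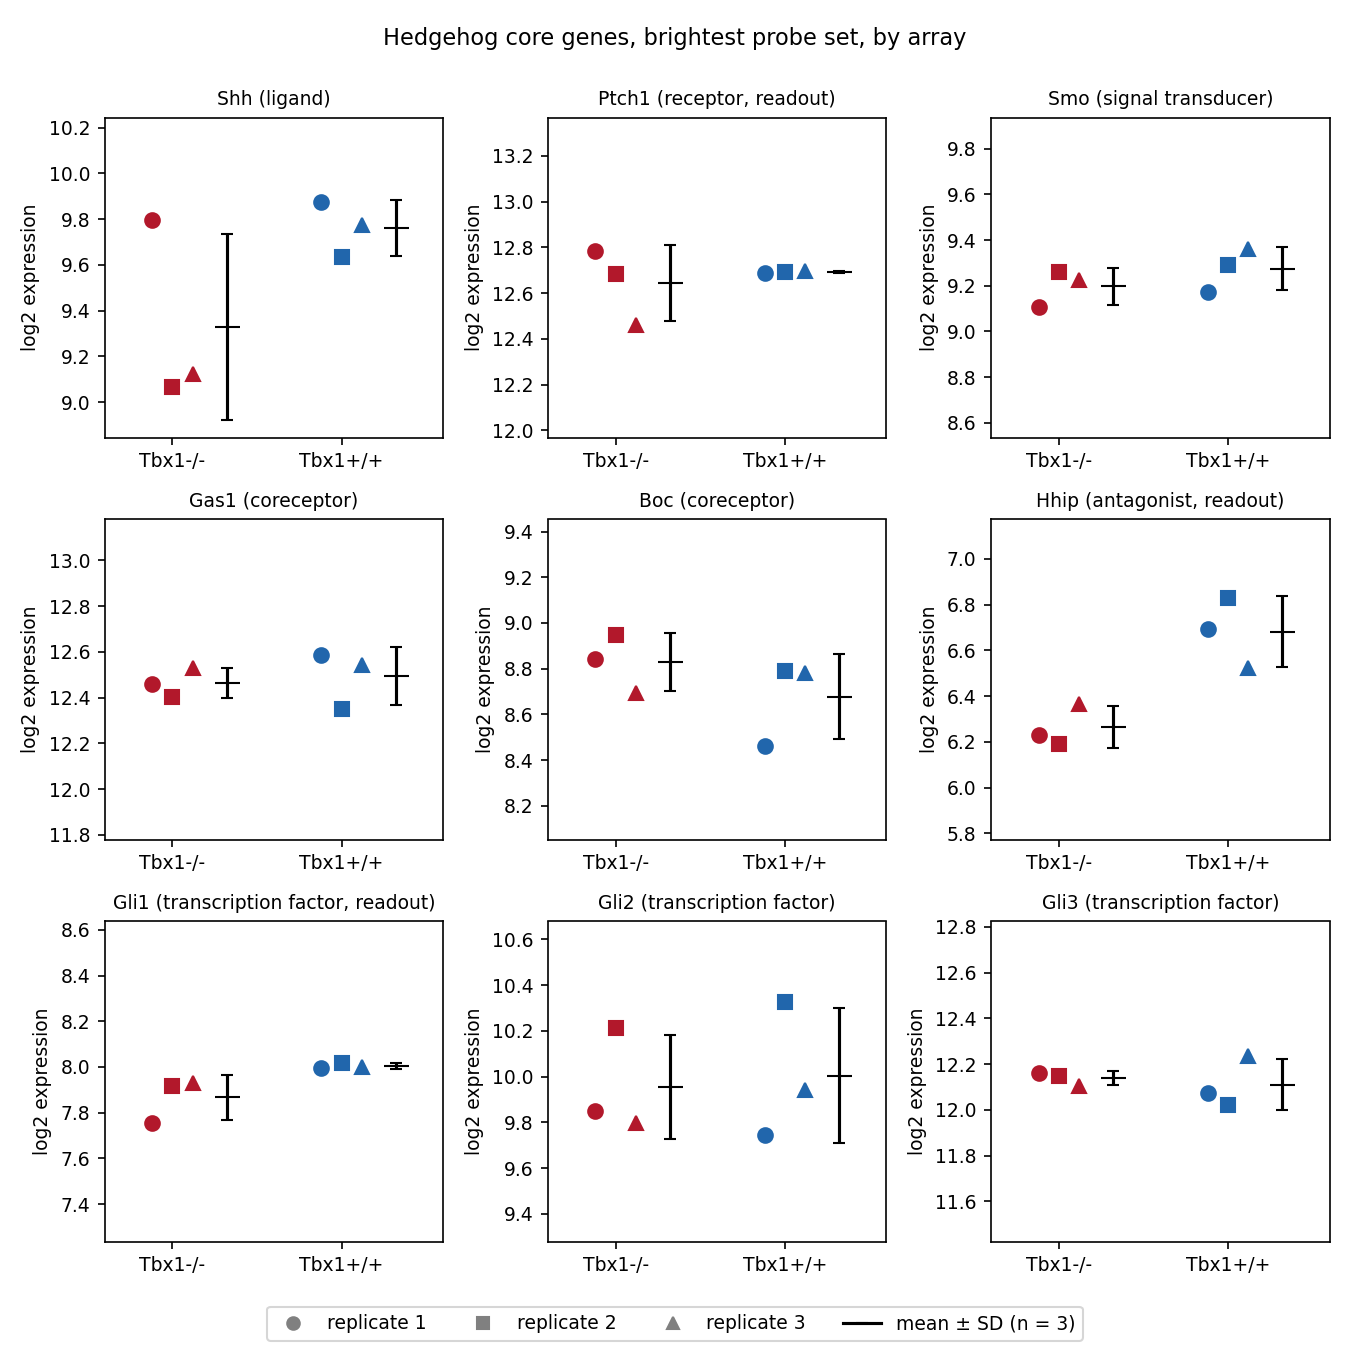
The 9 Hedgehog core genes by array. Each point is the log2 expression of the brightest probe set on 1 array, the black bar is the mean with its SD (n = 3), and every panel spans 1.4 log2 units. Hhip and Gli1 do not overlap between genotypes, and Shh is low on Tbx1-/- replicates 2 and 3 alone.

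Shh, the ligand, read 9.79, 9.06 and 9.12 on the Tbx1-/- arrays and 9.88, 9.63 and 9.78 on the Tbx1+/+ arrays (log2 expression, replicates 1 to 3). Tbx1-/- replicates 2 and 3 lay below every Tbx1+/+ array, and Tbx1-/- replicate 1 lay within the Tbx1+/+ range, so the groups overlapped. The mean was 9.33 ± 0.41 on the Tbx1-/- arrays and 9.76 ± 0.12 on the Tbx1+/+ arrays (SD, n = 3 each), a difference of -0.43 (SE 0.19, 95% interval -0.86 to -0.01). Shh was thus at 0.740 of the Tbx1+/+ level, with an unadjusted p of 0.0471 and an adjusted p of 1.00 in limma. With the replicate block these were 0.00869 and 0.830 in limma. The two-sided exact permutation test gave p = 0.30, where 3 arrays against 3 cannot go below 0.10. The size of the difference hung on single arrays, at -0.67 without Tbx1-/- replicate 1 (adjusted p = 0.308 in limma) and -0.33 without Tbx1-/- replicate 3. The second probe set of Shh was dimmer, at 5.49, 5.09 and 5.32 on the Tbx1-/- arrays and 5.85, 5.31 and 5.19 on the Tbx1+/+ arrays. It differed by -0.15 (SE 0.19), with overlapping groups.

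Since Shh comes from the epithelium, a minor part of the arch, markers of its source were read beside it. In bulk tissue, fewer cells of a type and less RNA per cell cannot be told apart. All 14 epithelial markers were above 4 on every array, and their summed signal ran from 14.46 to 15.08 on the Tbx1-/- arrays and from 14.32 to 14.47 on the Tbx1+/+ arrays. The 15.08 was that of Tbx1-/- replicate 3, and Tbx1-/- replicates 1 and 2 read 14.53 and 14.46. The list had 6 lower and 8 higher means on the Tbx1-/- arrays, a median difference of 0.03, and 0 genes past the adjusted threshold in limma (1 was higher without adjustment). Epcam and Cdh1, adhesion proteins that define epithelium, differed by 0.06 (SE 0.10) and 0.05 (SE 0.10); they were picked after their values were seen. The 3 members with the smallest p were keratins. Krt18 read 12.10, 12.01 and 13.50 on the Tbx1-/- arrays and 11.65, 11.87 and 11.71 on the Tbx1+/+ arrays, and its partner Krt8 was likewise highest on Tbx1-/- replicate 3, at 12.69 against 10.85 or below elsewhere. Without that array Krt18 differed by 0.31 and Krt8 by 0.24. Krt5, a basal keratin, differed by -0.60 (SE 0.28), from -0.92 (without Tbx1+/+ replicate 3) to -0.40 (without Tbx1+/+ replicate 2) with 1 array left out, and by -0.28 with array weights. With the replicate block Krt5 had an SE of 0.12, an unadjusted p of 0.00183 and an adjusted p of 0.490 in limma. Krt18 and Krt8, both higher, had unadjusted p-values of 0.0226 and 0.0376 with that block in limma. Of 7 tested genes of the pharyngeal endoderm, 2 had lower and 5 higher means (median 0.06, 0 past the threshold in limma and 0 at an unadjusted p under 0.05). Foxa1, a forkhead factor of endoderm, read 8.10, 7.68 and 7.58 on the Tbx1-/- arrays and 8.19, 8.16 and 7.72 on the Tbx1+/+ arrays (-0.24, SE 0.18, and -0.13 without Tbx1-/- replicate 3). Pax1, a paired-box factor of the pharyngeal pouches, had the smallest p of that list and went the other way, at 5.92, 5.47 and 5.99 on the Tbx1-/- arrays and 5.30, 5.71 and 5.45 on the Tbx1+/+ arrays (0.31, SE 0.17). Nkx2-1, a homeobox factor of the thyroid and lung primordia, differed by 0.11 (SE 0.12). Groups overlapped for all 3. What part these markers have in the Shh values was not tested.

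Ptch1, the receptor and a readout of the pathway, showed no detectable difference. On its brightest set it read 12.79, 12.68 and 12.46 on the Tbx1-/- arrays and 12.69, 12.69 and 12.70 on the Tbx1+/+ arrays. The Tbx1+/+ arrays lay within 0.01 of one another, and the Tbx1-/- arrays spread to both sides of them. The difference was -0.05 (SE 0.08, 95% interval -0.24 to 0.14, unadjusted p = 0.567 and adjusted p = 1.00 in limma). Without Tbx1-/- replicate 3 it was 0.04. The dimmer sets went the other way, by 0.08 (SE 0.11) and 0.07 (SE 0.13). On the set with 0.08 the groups did not overlap, at 5.84 to 6.03 on the Tbx1-/- arrays and 5.81 to 5.84 on the Tbx1+/+ arrays. They nearly touched, with the lowest Tbx1-/- array at 5.84036 and the highest Tbx1+/+ array at 5.83985. Smo, the transmembrane protein that carries the signal inward, differed by -0.08 (SE 0.09, 95% interval -0.29 to 0.14) on its brightest set, which read 9.11, 9.26 and 9.22 on the Tbx1-/- arrays and 9.17, 9.29 and 9.36 on the Tbx1+/+ arrays. Its other sets differed by -0.15 each (SE 0.11 and 0.18). All 3 Smo sets thus had lower means, as had all sets of 21.8% of the 3533 genes with 3 or more tested sets, and all 3 overlapped between genotypes.

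Neither coreceptor differed detectably. Gas1, a membrane-anchored protein that binds Shh, read 12.46, 12.40 and 12.53 on the Tbx1-/- arrays and 12.59, 12.35 and 12.54 on the Tbx1+/+ arrays. The genotypes overlapped, and the difference was -0.03 (SE 0.08, 95% interval -0.20 to 0.14), which turned to 0.0017 without Tbx1-/- replicate 2 and 0.018 without Tbx1+/+ replicate 1. Its dimmer sets differed by -0.22 (SE 0.19) and -0.18 (SE 0.19), where Tbx1+/+ replicate 1 was the highest array on both, at 10.59 and 9.15. Boc, an immunoglobulin-superfamily coreceptor, read 8.84, 8.95 and 8.69 on the Tbx1-/- arrays and 8.46, 8.79 and 8.78 on the Tbx1+/+ arrays. Its difference was 0.15 (SE 0.12, 95% interval -0.13 to 0.43), and 0.04 without Tbx1+/+ replicate 1, the lowest array. The other Boc sets differed by 0.10 (SE 0.12) and 0.12 (SE 0.14), the last at values near 4. Neither coreceptor had an unadjusted p under 0.05 in limma, and whether the 2 differ from each other was not tested.

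Hhip, a membrane protein that binds and sequesters the ligand and is itself induced by the pathway, was lower on the Tbx1-/- arrays on every one of its 4 probe sets, without overlap. The brightest set read 6.23, 6.19 and 6.37 on the Tbx1-/- arrays and 6.69, 6.83 and 6.52 on the Tbx1+/+ arrays. The gap between the highest Tbx1-/- array and the lowest Tbx1+/+ array was narrow, and all values lay in the lower part of the scale. The means were 6.26 ± 0.09 on the Tbx1-/- arrays and 6.68 ± 0.15 on the Tbx1+/+ arrays (SD, n = 3 each), which put Hhip at 0.748 of the Tbx1+/+ level (difference -0.42, SE 0.12, 95% interval -0.70 to -0.14). Unadjusted p in limma was 0.00880 and adjusted p 1.00, and the exact permutation test gave p = 0.10, the smallest possible. With the replicate block the unadjusted p in limma was 0.0169 and the adjusted p 0.996. With 1 array left out the difference ran from -0.50 to -0.34, and it was -0.47 without Tbx1-/- replicate 3.

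The 3 other Hhip sets differed by -0.32 (SE 0.13), -0.26 (SE 0.12) and -0.40 (SE 0.13). Their Tbx1-/- values were 6.17, 5.93 and 5.83, then 5.71, 5.54 and 5.85, then 5.55, 5.32 and 5.40. Their Tbx1+/+ values were 6.27, 6.22 and 6.40, then 6.00, 5.95 and 5.91, then 5.96, 5.85 and 5.67. Probe sets of a gene share the RNA of the same array, so they repeat the reading and add no replicate. Of the 3533 genes with 3 or more tested probe sets, 4 (0.113%) were lower without overlap on all of them: Hhip, Vgll3, Pcdh19 and Ttr, the last 3 picked after their values were seen.

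**Figure D3:**
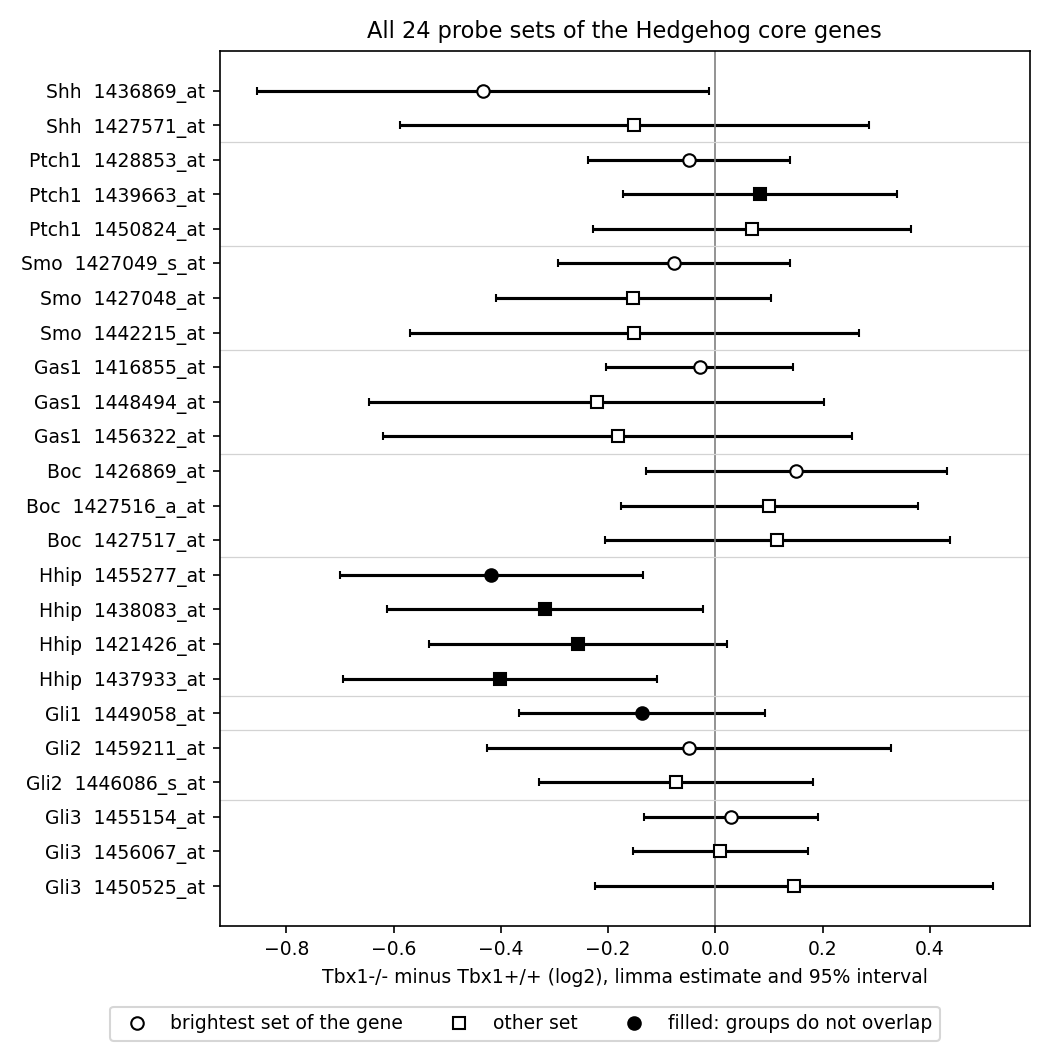
Genotype difference on all 24 probe sets of the Hedgehog core genes. Points are limma estimates of Tbx1-/- minus Tbx1+/+ (log2) with 95% intervals, circles are the brightest set of a gene, and filled symbols mark sets whose groups do not overlap. The 4 Hhip sets lie between -0.42 and -0.26, and the 3 sets of Ptch1 lie on both sides of 0.

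Hhip and Ptch1 are both read as outputs of the Gli proteins, so 250 bases before 1 annotated transcript start of each are shown for comparison. They come from the RefSeq annotation of GRCm38.p6, minus strand, 5′ to 3′. Neither is the outermost start of its gene: the start used lies 52 bases inside the annotated locus for Hhip and 7725 bases inside it for Ptch1, so the whole Ptch1 window lies within the gene. Both strands were searched for GACCACCCA, a consensus to which Gli zinc fingers bind. Capitals mark the first 9 bases, from the 5′ end, that reach the best match in the window, and later stretches may match equally well.
Hhip, chr8:80058009-80058258: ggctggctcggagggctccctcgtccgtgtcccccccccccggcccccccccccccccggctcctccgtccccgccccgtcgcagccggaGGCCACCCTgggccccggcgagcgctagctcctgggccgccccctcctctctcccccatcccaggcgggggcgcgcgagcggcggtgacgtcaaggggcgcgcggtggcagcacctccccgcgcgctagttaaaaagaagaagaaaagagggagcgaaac
Ptch1, chr13:63565736-63565985: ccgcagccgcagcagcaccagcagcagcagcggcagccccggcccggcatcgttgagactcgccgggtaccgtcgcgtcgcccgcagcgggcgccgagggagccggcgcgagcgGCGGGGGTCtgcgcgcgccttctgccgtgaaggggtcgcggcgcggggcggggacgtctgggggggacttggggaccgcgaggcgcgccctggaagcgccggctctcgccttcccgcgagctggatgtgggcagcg
The full consensus stands in neither window, nor in those of the 4 other members with an entry (Smo, Gas1, Gli2 and Gli3), and 0.225% of 32817 such windows hold it. The marked stretch matches 7 of 9 letters in Hhip, on the strand shown, a match that 51.8% of the windows reach. In Ptch1 it matches 6 of 9, on the opposite strand, which 98.6% reach, and other stretches of that window match as many. Both windows are rich in G and C, and the search describes these letters only.

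Gli1, a zinc finger activator that is itself a pathway target, was slightly lower. Its 1 probe set read 7.75, 7.92 and 7.93 on the Tbx1-/- arrays and 7.995, 8.02 and 7.999 on the Tbx1+/+ arrays. The Tbx1+/+ arrays were nearly equal and all Tbx1-/- arrays lay below them. The difference was -0.14 (SE 0.10, 95% interval -0.36 to 0.09, unadjusted p = 0.203 and adjusted p = 1.00 in limma), with 0.10 from the exact permutation test. Without Tbx1-/- replicate 1 the difference was -0.08.

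Gli2 and Gli3, the factors that relay the signal first, Gli2 mainly as an activator and Gli3 mainly as a repressor, did not differ detectably. Gli2 read 9.85, 10.21 and 9.80 on the Tbx1-/- arrays and 9.74, 10.32 and 9.94 on the Tbx1+/+ arrays. Replicate 2 was the highest of both genotypes, and the difference was -0.05 (SE 0.17, 95% interval -0.43 to 0.33), with 0.11 without Tbx1+/+ replicate 2. The second Gli2 set differed by -0.07 (SE 0.11). Gli3 read 12.16, 12.15 and 12.10 on the Tbx1-/- arrays and 12.07, 12.02 and 12.23 on the Tbx1+/+ arrays, a difference of 0.03 (SE 0.07, 95% interval -0.13 to 0.19) that was -0.02 without Tbx1+/+ replicate 2. Its other sets differed by 0.01 (SE 0.07) and 0.15 (SE 0.16). On the brightest sets the Gli3 interval was the narrowest of the 9 members, while the Gli2 interval still allows a difference the size of that in Hhip.

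The 6 arrays did not settle whether the readouts follow Shh. Taken by replicate number, Tbx1-/- minus Tbx1+/+ was -0.08, -0.57 and -0.65 for Shh and -0.46, -0.64 and -0.16 for Hhip. In replicate 1 Shh was thus nearly equal between genotypes while Hhip differed, and in replicate 3 Shh differed most and Hhip least. The same difference was 0.10, -0.01 and -0.23 for Ptch1, in the same order as for Shh, and -0.24, -0.10 and -0.07 for Gli1. Over the 6 arrays Pearson's r with Shh was 0.64 for Ptch1 (rho 0.60), 0.51 for Hhip (rho 0.43) and 0.03 for Gli1 (rho 0.09). It was 0.30 for Gas1 (rho 0.60), -0.45 for Boc (rho -0.49), -0.17 for Smo (rho -0.43), -0.29 for Gli2 (rho -0.54) and 0.04 for Gli3 (rho 0.03). In 8 relations the exact two-sided permutation p for r was 0.146 or above and at least 0.944 after Benjamini-Hochberg adjustment, and for rho at least 0.242 and 0.559. The 2 arrays farthest from the median of Shh are Tbx1-/- replicates 2 and 3, which stand apart from the other 4. Without them r was 0.11 for Ptch1, -0.40 for Hhip and -0.25 for Gli1. For the other members it was 0.91 for Gas1, -0.63 for Boc, -0.48 for Smo, -0.99 for Gli2 and 0.35 for Gli3. The Shh values of these 4 arrays span only 9.63 to 9.88. With so few arrays the relation within either set was not tested. With any 1 array left out r ran from 0.35 to 0.91 for Ptch1, from 0.25 to 0.80 for Hhip and from -0.12 to 0.91 for Gli1, the last highest without Tbx1-/- replicate 1.

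**Figure D4:**
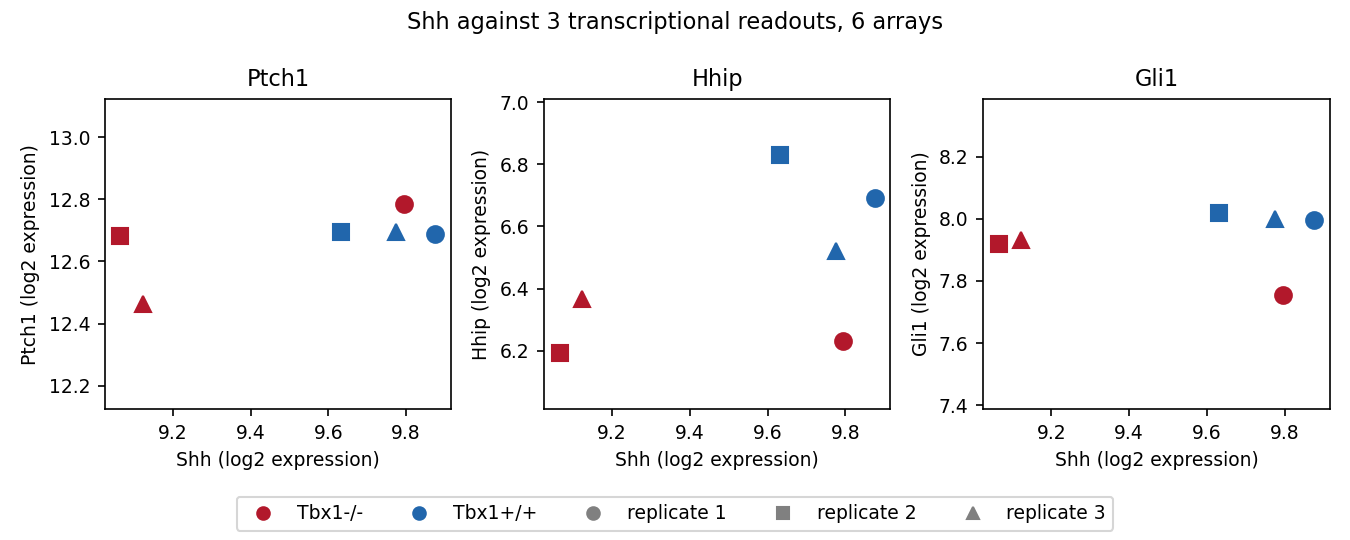
Shh against its transcriptional readouts. Each point is 1 array, with Shh on the horizontal axis and Ptch1, Hhip or Gli1 on the vertical axis (log2 expression, the vertical axis spanning 1 log2 unit), red for Tbx1-/- and blue for Tbx1+/+. Tbx1-/- replicate 1 is at the Tbx1+/+ level for Shh and below it for Hhip and Gli1.

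The genes whose pattern over the 6 arrays was most like that of Shh, by Pearson's r among 16073 genes, were Peg12 (0.98), Fam227a (0.98), Dcun1d1 (0.98), Socs1 (0.98) and Ppp2r3c (0.97). Fam227a (4.03 to 4.51) and Socs1 (3.50 to 4.08) read near the filter of 4. As the highest of so many genes on 6 arrays, these r values do not show shared control with Shh. Ptch1, the nearest member, ranked 1410 and Hhip 2501.

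The other components of the pathway stayed close to 0. Of 26 listed genes 24 were tested, 14 with lower and 10 with higher means on the Tbx1-/- arrays (median -0.01), and the differences ran from -0.19 to 0.26. In limma 0 passed the adjusted threshold and 0 had an unadjusted p under 0.05. The smallest p belonged to Scube3, a secreted protein that helps release the ligand, at 9.64, 9.60 and 9.79 on the Tbx1-/- arrays and 9.77, 9.87 and 9.90 on the Tbx1+/+ arrays (-0.17, SE 0.09). Next were Spop, a ubiquitin ligase adaptor that acts on Gli proteins, at 0.10 (SE 0.08), and Gpr161, a ciliary inhibitor of the pathway, at -0.12 (SE 0.09). The remaining coreceptor Cdon differed by -0.08 (SE 0.13) and the inhibitor Sufu by -0.05 (SE 0.09), both picked for their roles. The other ligands Ihh and Dhh read 4.42 to 4.64 and 4.73 to 5.29 on the Tbx1-/- arrays, and 4.38 to 4.56 and 4.90 to 5.11 on the Tbx1+/+ arrays, near the filter. Of 14 genes of the primary cilium 11 were tested, with 5 lower and 6 higher means and differences from -0.09 to 0.07, and 0 had an unadjusted p under 0.05 in limma. Ift57, Kif3b and Dync2h1, which serve transport in the cilium, had the smallest p in that list, at -0.07 (SE 0.09), -0.09 (SE 0.12) and 0.07 (SE 0.13).

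Among 10 genes known to respond to Hedgehog signalling, 2 forkhead factors of the facial mesenchyme read lower on the Tbx1-/- arrays. Foxc2 and Foxd1 both depend on Smo in the neural crest of the mouse face. The list also holds the responsive forkhead factors Foxd2, Foxf1 and Foxf2, which overlapped between genotypes, so the lower reading was not shared by its forkhead factors as a group. Foxc2 read 10.498, 10.27 and 10.31 on the Tbx1-/- arrays and 11.05, 10.88 and 10.81 on the Tbx1+/+ arrays. Foxd1 read 8.58, 8.49 and 8.41 on the Tbx1-/- arrays and 9.09, 9.24 and 8.93 on the Tbx1+/+ arrays. On both genes every Tbx1-/- array lay below every Tbx1+/+ array, by more than the spread within either genotype. Foxc2 was at 0.683 of the Tbx1+/+ level (difference -0.55, SE 0.10) and Foxd1 at 0.663 (-0.59, SE 0.11). Neither passed in limma over all genes, with adjusted p-values of 0.293 and 0.340, and unadjusted p-values of 3.65e-04 and 5.03e-04. With the replicate block the adjusted p was 0.0742 for Foxc2 and 0.213 for Foxd1. Without Tbx1-/- replicate 3 the differences were -0.53 and -0.55.

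Of the other 8 genes of that list, 5 had lower and 3 higher means, all closer to 0. Mycn, a growth regulator, was higher without overlap, at 12.65, 12.44 and 12.49 on the Tbx1-/- arrays and 12.38, 12.08 and 12.43 on the Tbx1+/+ arrays (0.22, SE 0.10, unadjusted p = 0.0555 in limma). Foxf1 and Foxf2, forkhead factors that respond to Shh in mesenchyme, differed by 0.06 (SE 0.14) and -0.18 (SE 0.13), Foxd2 by 0.00 (SE 0.12) and the cyclins Ccnd1 and Ccnd2 by -0.02 (SE 0.06) and -0.03 (SE 0.06). Rab34, a Rab GTPase needed for the cilium, differed by -0.11 (SE 0.10), and Bcl2, a survival factor, by -0.07 (SE 0.14). In all, 7 of 10 had lower means and the median was -0.05. In limma 0 of 10 passed the adjusted threshold (0.0373% of all genes did). At an unadjusted p under 0.05 in limma 2 were lower, where 1.2% of all genes were lower and 1.47% higher. Without overlap 2 were lower and 1 higher, where 3.25% and 3.17% of all genes were.

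**Figure D5:**
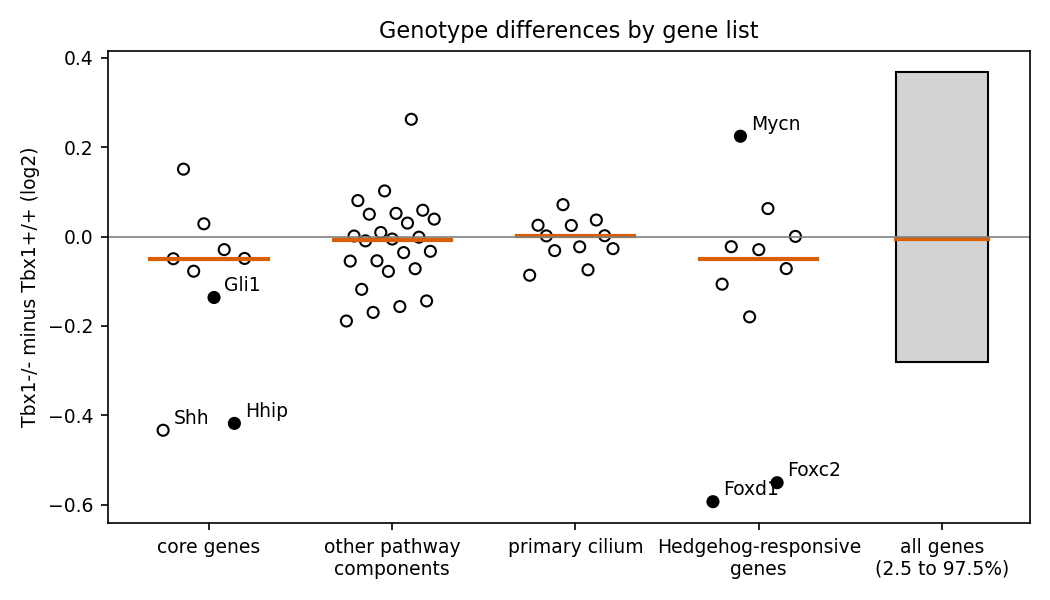
Genotype differences by gene list. Each point is the difference of 1 gene (Tbx1-/- minus Tbx1+/+, log2), filled where groups do not overlap, orange lines are medians, and the grey box spans 95% of all genes tested, from -0.28 to 0.37. Shh, Hhip, Foxc2 and Foxd1 lie below the box, and the other components and the cilium genes within it.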

How the data were processed

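Affymetrix arrays of mandibular arch RNA, 3 per genotype, were grouped by their titles. The authors deposited 1 log2 value per probe set and array, from GCRMA per the submitters' processing notes, which name no version. The log2 scale was read from the values (1.95 to 15.11). GCRMA equalizes distributions between arrays and compresses differences near background.

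Platform annotation named 1 gene for 34958 probe sets, giving 18194 genes. Each was read by its brightest set, and 16074 genes exceeded 4 on at least 3 arrays. The genotype model used limma 3.58.1 under R 4.3.3 (intensity trend, Benjamini-Hochberg, threshold 0.05), and likewise over 29948 probe sets, with 2 lower and 0 higher past the threshold (331 lower and 404 higher without adjustment). The fit was also run on 20 simulated sets of 16074 genes. Each set held 200 changed genes, by 0.5 to 2 (log2), and independent normal noise. There the fit called 32.5% of changes of 0.5, the smallest simulated, and 78.9% of changes of 1. Most changes of 0.5 were thus missed in the simulated sets. The shares are averages over genes, and none was computed for a single member. These shares depend on the number of changed genes, which is unknown in the data.

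Replicate numbers are shared by the labels of both genotypes. Deviations from genotype means correlated at 0.261, 0.13 and 0.135 for same-numbered arrays and at 0.0647 or below otherwise, so a replicate block was also fitted.

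The members and gene lists were chosen with earlier results of these data known. Of each other list the 3 genes with the smallest p were to be named; this was done for the pathway, cilium, responsive, epithelial and endoderm lists, and the other marker lists are given as counts and summed signals only. Listed genes without a probe set of 1 symbol were not analysed here. Promoters came from RefSeq, for 6 of 9 members. Array number limits all precision.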

Additional observations from a re-analysis of the deposited data

How the results depend on the processing

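Under 15 alternatives (filter, floor, normalization, variance model, array weights, mean of probe sets, replicate block and each array left out) 0 members and 0 genes of the other pathway, cilium and responsive lists passed the adjusted threshold, nor did any member probe set under the 14 that apply to probe sets. Hhip kept a lower mean and an unadjusted p under 0.05 in limma in all 15, Shh in 7 of 15, with differences of -0.67 to -0.29. Over all genes, 0 higher and 2 lower passed without the filter, with the floor of 4 or without the trend, 0 and 0 with the mean of probe sets, 1 higher after further quantile normalization or median centring, and 4 higher with the replicate block. With 1 array left out 0 to 14 were higher and 0 to 8 lower, most without Tbx1-/- replicate 3. Over probe sets 3 higher and 4 lower passed with the filter at 6, 1 higher with median centring or array weights, 4 higher and 10 lower with the replicate block, and 0 to 15 higher and 0 to 8 lower with 1 array left out.

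The members' median was -0.13 with the mean of probe sets and -0.13 to -0.032 with 1 array left out. Gli2 turned to 0.088 with array weights and ran from -0.18 to 0.11 with 1 array left out, Gas1 from -0.10 to 0.018, Ptch1 from -0.12 to 0.042 and Gli3 from -0.015 to 0.091. With the mean of probe sets Ptch1 was 0.034 and Spop -0.019. The r of Shh with Gli1 ran from -0.12 to 0.91, with Smo from -0.55 to 0.12, with Gli2 from -0.67 to 0.042 and with Gli3 from -0.29 to 0.23, and on deviations from genotype means it was -0.98 for Gli1 and -0.25 for Hhip. The replicate block changed no call of a member. Beyond what the alternatives show by their own construction (fewer arrays or other genes tested), the cause was not tested. The alternatives for the named genes that are no members, and the overlap with arrays left out, were chosen after seeing the data.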
